A study of Mus musculus with 6 samples.

Results

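Interferon-stimulated genes were followed in liver tumours of mice, as a set of 39 genes listed by symbol. Each symbol matched 1 row of the deposited table of 43346 genes, and all 39 passed the filter on low counts, among 18359 genes tested. DEN (diethylnitrosamine), which is carcinogenic to the liver, had been given to induce the tumours in animals that overexpress SULF2, an extracellular sulfatase that trims heparan sulfate. The labels name this background Sulf2-TTR without spelling out the promoter, and they give no strain, age or sex. Of the 6 libraries, 3 came from tumours with wild-type Gli1 (WT) and 3 from tumours with Gli1 knocked out (KO), Gli1 being a transcription factor of the Hedgehog pathway. DEN and SULF2 overexpression were thus common to both groups, and no untreated liver was compared. The labels do not say in which cells Gli1 was lost, or whether each tumour came from its own animal, so p-values measure only the spread between these samples.

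Summed gene counts ran from 75205624 to 132979502 reads per library. Gli1 was counted at 10, 20 and 7 reads in WT replicates 1, 2 and 3 and at 4, 3 and 3 reads in the KO replicates, lower in every KO library than in any WT library. Albumin (Alb) reached 114643 to 167494 normalised CPM (counts scaled by TMM-adjusted library size), and none of the 8 hepatocyte markers was at 0. WT replicate 3 stood apart, with a voom sample weight of 0.39 against 1.00 to 1.58 in the other libraries, and the values it moved most are also given without it.

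Interferons are secreted proteins, of which cells release those of type I after sensing viral or misplaced nucleic acid. Type I interferons act through the receptor Ifnar1 and Ifnar2 and the kinases Jak1 and Tyk2 to activate a complex with Stat2 and Irf9 that binds interferon-stimulated response elements, while interferon gamma has a receptor of its own and acts on gamma-activated sites. The genes so induced block viral entry, translation and replication, mark vacuoles of intracellular pathogens and feed back on the pathway, and in the liver they are best known from viral hepatitis.

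The promoters of these genes carried the letters of the response element more often than promoters at large. In the RefSeq promoter table (GRCm38.p6), 29 of the 39 genes had an entry, and 15 of the 29 (51.7%) held GAAA, any 2 bases and GAAA again on either strand in the 250 bases before the start, against 3.46% of 27025 genes. The letters TTCNNNGAA, the core of a gamma-activated site, were found in 7 of the 29 (24.1%), against 8.13% of all genes. The motifs overlapped each other in the Bst2 promoter. A match describes these letters in this window and is no evidence of binding. The genes without an entry were Dhx58, Iigp1, Mx1, Mx2, Oas2, Parp14, Parp9, Rtp4, Usp18 and Zbp1. A window from 6 promoters before the start is printed in the direction of the gene, with these 10 letters or their reverse complement in capitals, for a gene with 3 overlapping matches (Isg15), a gene with a high level (Bst2), a gene with KO values above WT (Ifit3), a gene with KO values below WT (Irgm1), and a pair of neighbours with near-identical windows (Igtp and Irgm2).
Isg15 (chr4:156200850-156200909, minus strand): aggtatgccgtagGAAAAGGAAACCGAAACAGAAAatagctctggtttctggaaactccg
Bst2 (chr8:71537562-71537621, minus strand): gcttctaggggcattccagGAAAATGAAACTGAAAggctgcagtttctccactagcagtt
Ifit3 (chr19:34583382-34583441, plus strand): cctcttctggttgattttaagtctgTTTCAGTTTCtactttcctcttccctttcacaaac
Irgm1 (chr11:48871421-48871469, minus strand): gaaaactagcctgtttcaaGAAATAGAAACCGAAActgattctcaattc
Igtp (chr11:58199497-58199555, plus strand): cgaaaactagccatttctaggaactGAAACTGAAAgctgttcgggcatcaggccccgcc
Irgm2 (chr11:58214888-58214947, plus strand): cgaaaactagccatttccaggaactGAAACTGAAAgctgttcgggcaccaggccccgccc
The match nearest to the start began 66 bases before it in Isg15, 124 in Bst2, 122 in Ifit3 and 24 in Irgm1. The Igtp and Irgm2 windows were identical at 57 of 59 positions. Over 220 bases before the start, lined up on the match with no gaps allowed, 134 positions were identical.

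The question put to these genes was whether their expression differed between Gli1 KO and WT tumours. None was called: 0 of 39 passed a false discovery rate (FDR) of 0.05 in edgeR's quasi-likelihood test (0% of all genes tested passed), and 0 of 39 had an unadjusted p under 0.05, which 3.62% of all genes had. DESeq2 and limma voom also called 0 of the 39 at that FDR, against 0.326% of all genes by DESeq2 and 0% by voom. At an unadjusted p under 0.05 DESeq2 had 1 (Mx2, against 3.88% of all genes) and voom 0 (3.48%). The median log2 fold change (KO minus WT) was 0.031 over the 39 genes and -0.011 over all genes tested, with 21 of the 39 above 0 (53.8%) against 48.2% of all genes. Genotypes did not overlap for 3 of 39 genes, against 8.11% of all genes: Ifit3 and Samd9l were higher in each KO library (4.15% of all genes) and Irgm1 was lower (3.96%). For 24 of the 39 the 95% interval of the difference lay within a 2-fold change either way, and for the other 15 these libraries could not exclude one. Because the libraries are bulk tumour RNA, fewer cells of a type and less RNA per cell cannot be told apart in any of these values.

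**Figure D1:**
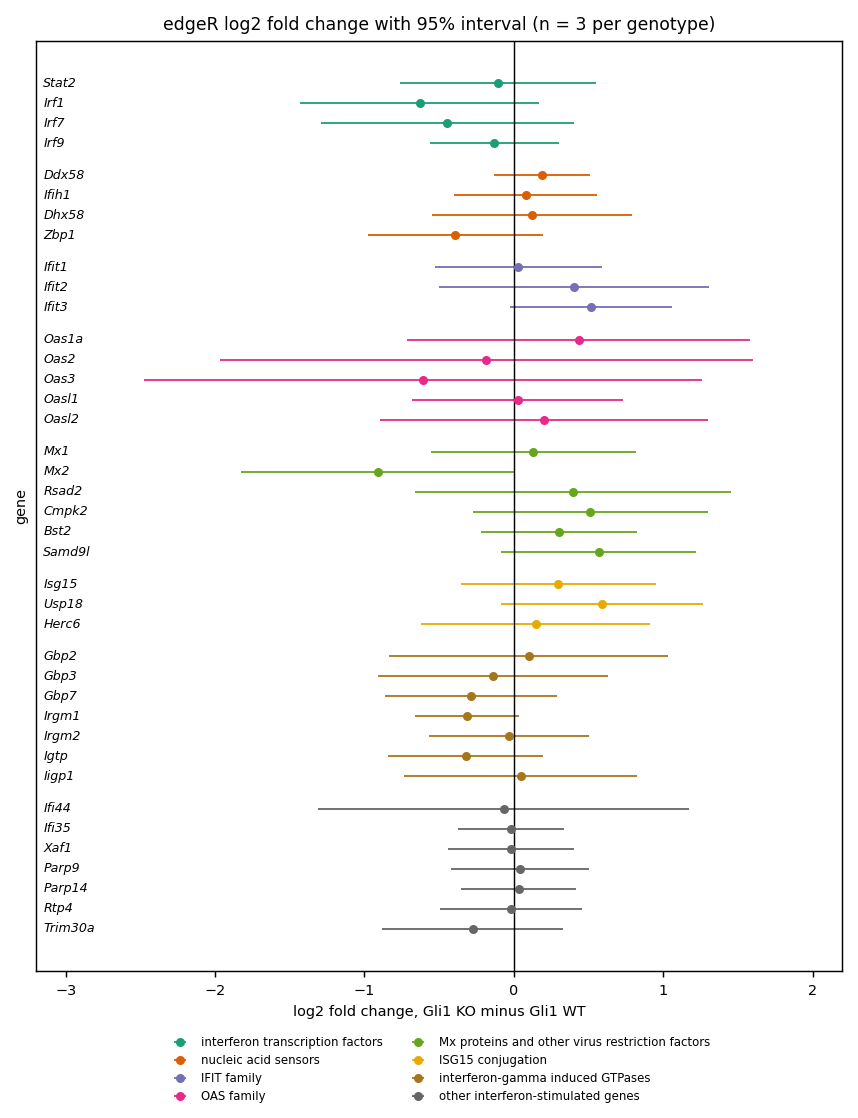
Log2 fold change (KO minus WT, horizontal axis) of each of the 39 genes from edgeR, with its 95% interval, coloured by role (3 libraries per genotype). Every interval includes 0, from the narrow one of Ddx58 to the wide one of Oas3, which runs from -2.47 to 1.26.

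The genes differed widely in level. Per length, on the deposited RPKM scale, Iigp1 had the highest mean over the 6 libraries at 117 RPKM (83.3 to 156), followed by Bst2 at 88.8 and Stat2 at 17.9. At the other end, Oas3 averaged 0.166 RPKM (0.0442 to 0.398), below Mx1 at 0.487 and Oas2 at 0.76. Most of the set therefore was expressed at a low level, and Iigp1 and Bst2 stood well above it in every library.

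Among the interferon transcription factors, all 4 had a log2 fold change below 0 and none passed, with an edgeR FDR of 1.00 for each. Irf1 (ENSMUSG00000018899, chromosome 11, 53770014 to 53778374), a factor induced mainly by interferon gamma, had normalised CPM of 48.8, 40.8 and 19.96 in WT replicates 1, 2 and 3 and 21.4, 21.2 and 28.1 in the KO replicates. WT replicates 1 and 2 were above all KO libraries and WT replicate 3 was below them. Its log2 fold change was -0.63 ± 0.33 (SE over 3 libraries a genotype; 95% interval -1.43 to 0.17), and -0.93 ± 0.19 without WT replicate 3 (edgeR FDR = 0.425). Stat2, a subunit of the complex activated by type I interferon, had 120, 90.4 and 70.5 CPM in WT against 67.2, 82.7 and 111.5 in KO, with the genotypes spread over the same range (-0.10 ± 0.27; 95% interval -0.76 to 0.55). Irf9, the DNA-binding partner of Stat2, had 38.0, 38.7 and 27.0 CPM in WT against 30.6, 33.9 and 30.3 in KO (-0.13 ± 0.18). Its deposited span overlaps that of Rnf31 on the same strand, and that of Irf7 overlaps Phrf1 on the opposite strand, so reads may be shared. Irf7, which amplifies interferon alpha production, differed most within KO, where replicate 1 had 11.5 CPM and replicate 2 had 30.9, against 24.8 to 31.6 in WT (-0.44 ± 0.35). Without KO replicate 2 it was -0.89 ± 0.27 (edgeR FDR = 1.00).

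The nucleic acid sensors had 3 of 4 log2 fold changes above 0. Ddx58, which encodes the RNA sensor RIG-I, had 23.9, 24.2 and 26.0 CPM in WT against 25.7, 29.2 and 29.5 in KO. Its KO values were higher on average, but KO replicate 1 lay just under WT replicate 3 (0.19 ± 0.14; interval -0.14 to 0.51). Ifih1, which encodes the sensor of long double-stranded RNA MDA5, had 35.2, 31.2 and 39.85 CPM in WT against 32.0, 47.0 and 33.4 in KO (0.080 ± 0.20). Zbp1, a sensor of Z-form nucleic acid that can trigger necroptosis, had 9.27, 8.69 and 9.06 CPM in WT against 5.94, 5.48 and 9.21 in KO. KO replicates 1 and 2 were below WT and KO replicate 3 was level with it (-0.39 ± 0.24; interval -0.97 to 0.19), and the value was -0.66 ± 0.21 without KO replicate 3 (edgeR FDR = 1.00). Dhx58, the regulator of these RNA sensors also called LGP2, ranged from 6.12 to 10.6 CPM in KO alone.

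The IFIT genes, whose products bind viral RNA and block translation, had 3 of 3 log2 fold changes above 0. Ifit3 (ENSMUSG00000074896, chromosome 19, 34583531 to 34588731) had 6.25, 7.35 and 7.04 CPM in WT against 7.48, 9.92 and 12.2 in KO. The genotypes did not overlap, with KO replicate 1 only just above WT replicate 2 (0.52 ± 0.23, edgeR FDR = 1.00; interval -0.027 to 1.06). Its close paralog Ifit3b, deposited as I830012O16Rik, had 2.13, 2.68 and 2.72 CPM in WT against 3.26, 4.56 and 4.16 in KO (0.67 ± 0.26, edgeR FDR = 1.00). Reads can be split between these near-identical copies, so neither count is certain. Ifit1 had 6.68, 5.22 and 7.46 CPM in WT against 5.74, 7.86 and 6.18 in KO, with full overlap (0.031 ± 0.23). Ifit2 was lowest in WT replicate 2 at 3.38 CPM, while WT replicate 3 at 8.59 was level with KO replicate 2 at 8.84 (0.40 ± 0.38). Without WT replicate 3 Ifit2 was 0.89 ± 0.27 (edgeR FDR = 0.466).

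The OAS genes, which encode double-stranded RNA sensors that activate RNase L and related proteins, had the largest median SE of the 8 roles (0.48). Oas2 had 1.04, 3.34 and 8.03 CPM in WT replicates 1, 2 and 3 and 1.78, 5.64 and 3.51 in the KO replicates, a 7.72-fold range within WT. Oas3 had an 8.45-fold range within WT, from 0.301 CPM in replicate 1 to 2.54 in replicate 3, and 0.484 to 1.20 CPM in KO. Both were highest in WT replicate 3 and lowest in WT replicate 1, so that the KO libraries fell between WT extremes. Their log2 fold changes of -0.18 ± 0.75 (Oas2) and -0.61 ± 0.78 (Oas3) changed sign without WT replicate 3, to 0.74 and 0.53. Oas1a, with 6.12, 2.43 and 7.54 CPM in WT against 6.22, 10.6 and 4.91 in KO, overlapped as well (0.44 ± 0.48, interval -0.71 to 1.58), and leaving out KO replicate 2 gave 0.060, against 0.76 when WT replicate 3 was left out. Oasl1, which lacks enzyme activity and represses Irf7 translation in mice, was even in WT at 8.03, 7.76 and 7.48 CPM but ran from 4.93 to 10.7 in KO (0.025 ± 0.30). Oasl2 was higher in each KO library (4.16 to 6.03 CPM) than in WT replicates 1 and 2 (2.86 and 2.80), and WT replicate 3 exceeded them all at 8.004 (0.20 ± 0.46). Without WT replicate 3 it was 0.89 ± 0.26 (edgeR FDR = 0.466).

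Among the virus restriction factors, Mx2 had the smallest p of the whole set and the opposite sign to the other 5. Mx2 (ENSMUSG00000023341, chromosome 16, 97535308 to 97560900), a dynamin-like GTPase, had 14.7, 13.7 and 6.36 CPM in WT against 4.11, 6.81 and 7.57 in KO. WT replicates 1 and 2 lay above every KO library and WT replicate 3 lay among them (-0.91 ± 0.38; interval -1.83 to 0.0076; edgeR FDR = 1.00). Without WT replicate 3 the value was -1.20 ± 0.29 (edgeR FDR = 0.456). Its neighbour Mx1 stayed between 1.72 and 2.43 CPM in all 6 libraries (0.13 ± 0.29). Samd9l, an antiviral factor that restricts translation, had 14.7, 15.5 and 17.11 CPM in WT against 19.3, 33.7 and 17.13 in KO. The genotypes touched without overlapping, and KO replicate 2 stood above the other 5 (0.57 ± 0.27; interval -0.085 to 1.22). Without KO replicate 2 the value was 0.21 ± 0.18. Bst2, or tetherin, which holds budding virions at the cell surface, had 66.7, 85.5 and 54.8 CPM in WT against 70.7, 91.4 and 92.9 in KO (0.30 ± 0.22, interval -0.22 to 0.83), and 0.16 without WT replicate 3. Rsad2, which encodes viperin, and its neighbour Cmpk2, a nucleotide kinase, shared an order in KO: 10.3, 10.2 and 3.90 CPM for Rsad2 and 5.32, 4.91 and 2.99 for Cmpk2 in replicates 1, 2 and 3. Both were lowest in WT replicate 2 among the WT libraries, at 4.44 and 2.33 CPM, and overlapped between genotypes (0.40 ± 0.44 and 0.51 ± 0.33). Leaving out 1 library moved Rsad2 between 0.19 (KO replicate 1) and 0.73 (WT replicate 3).

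The ISG15 system, a ubiquitin-like modifier with its ligase and protease, had 3 of 3 log2 fold changes above 0. Usp18 (ENSMUSG00000030107, chromosome 6, 121245906 to 121270916), which removes ISG15 and also blocks the type I receptor, had 15.9, 8.01 and 12.2 CPM in WT against 14.5, 21.1 and 18.7 in KO. KO replicates 2 and 3 were above all WT libraries, and KO replicate 1 was under WT replicate 1 (0.59 ± 0.28; interval -0.087 to 1.27; edgeR FDR = 1.00). The value was 0.37 without WT replicate 2 and 0.84 without WT replicate 1. Isg15 itself was even in KO at 8.21, 8.54 and 7.95 CPM, inside the WT values of 9.02, 4.57 and 6.49 (0.30 ± 0.27). Herc6, the mouse ISG15 ligase, had 8.73, 15.1 and 9.51 CPM in WT against 8.20, 12.9 and 15.9 in KO (0.15 ± 0.32).

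The GTPases induced by interferon gamma, which attack the vacuoles of intracellular pathogens, had 5 of 7 log2 fold changes below 0. Irgm1 (ENSMUSG00000046879, chromosome 11, 48861968 to 48871683), a regulator of the other immunity-related GTPases, had 49.6, 41.9 and 40.7 CPM in WT against 36.4, 33.6 and 36.4 in KO. The KO libraries were close together and all below WT, by a small amount (-0.31 ± 0.15, edgeR FDR = 1.00; interval -0.66 to 0.035). Irgm2, of the same regulator class, had 36.0, 59.3 and 42.4 CPM in WT against 51.6, 42.8 and 40.0 in KO (-0.034 ± 0.22), and Igtp 25.4, 35.1 and 32.7 against 29.3, 18.9 and 26.3 (-0.32 ± 0.22). The deposited spans of Igtp and Irgm2 overlap on the same strand, so their counts are not fully separable. Iigp1, an effector that coats parasite vacuoles, had 379, 323 and 531 CPM in WT against 501, 500.3 and 272 in KO, and so spanned the same range in both genotypes (0.045 ± 0.33, interval -0.73 to 0.82). The guanylate-binding proteins Gbp2, Gbp3 and Gbp7 were each highest in WT replicate 3 (8.07, 8.88 and 17.8 CPM) and lowest in WT replicate 1 (3.18, 3.85 and 9.98 CPM), with the KO libraries in between. Of these, Gbp3 and Gbp7 share deposited spans with Gbp5.

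The remaining 7 genes had the smallest differences, with a median absolute log2 fold change of 0.032. Parp9 and Parp14, partner ADP-ribosyltransferase family proteins that tune interferon signalling, had 44.5, 41.1 and 36.95 CPM (Parp9) in WT against 32.3, 45.4 and 48.2 in KO, and 25.9, 31.7 and 35.04 CPM (Parp14) against 30.4, 33.8 and 30.5. Their log2 fold changes were 0.039 ± 0.19 and 0.032 ± 0.16, and the deposited span of Parp9 overlaps its opposite-strand neighbour Dtx3l. Trim30a, a negative regulator of Toll-like receptor signalling in mice, had 7.64, 12.05 and 11.1 CPM in WT against 6.55, 9.91 and 8.97 in KO (-0.28 ± 0.26). Xaf1 (6.49 to 7.63 CPM), Ifi35 (15.9 to 19.5) and Rtp4 (7.61 to 11.0) were nearly level in all 6 tumours, with log2 fold changes from -0.020 to -0.018. Ifi44 was the exception in spread, with 5.52, 4.31 and 17.0 CPM in WT against 9.34, 8.998 and 7.24 in KO. Its KO values lay above WT replicates 1 and 2 and below WT replicate 3, and its log2 fold change of -0.069 ± 0.52 was 0.80 ± 0.23 without WT replicate 3 (edgeR FDR = 0.466).

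**Figure D2:**
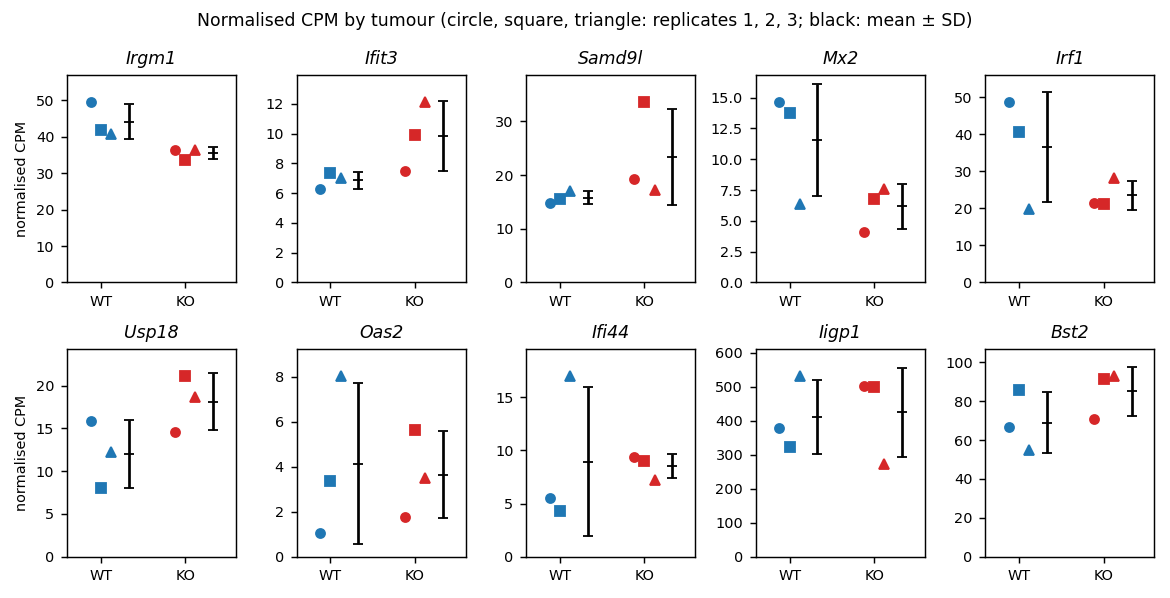
Normalised CPM (vertical axis, from 0) of 10 of the genes in each WT (blue) and KO (red) library, with the marker shape giving the replicate and black bars the mean and SD of 3. Irgm1, Ifit3 and Samd9l do not overlap between genotypes, while in Mx2, Irf1, Oas2 and Ifi44 WT replicate 3 (blue triangle) lies apart from the other WT libraries.

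The set did not move as 1 block across tumours. WT replicate 3 held the highest value of 9 genes (Oas2, Oas3, Oasl2, Gbp2, Gbp3, Gbp7, Iigp1, Ifi44 and Parp14) and KO replicate 3 that of another 9 (Ddx58, Dhx58, Ifit3, Bst2, Herc6, Ifi35, Xaf1, Parp9 and Rtp4). The lowest value fell in WT replicate 1 for 11 genes, in KO replicate 1 for 10 and in WT replicate 2 for 9. The median deviation of the 39 genes from their own means (log2) lay between -0.11 in WT replicate 1 and 0.18 in KO replicate 2, so no tumour had the whole set raised or lowered by much. The OAS genes had a median deviation of 0.82 in WT replicate 3 and 0.59 in KO replicate 2, against -0.67 in WT replicate 1 and -0.63 in KO replicate 1. The transcription factors ran the other way between the WT libraries, at 0.33 and 0.37 in replicates 1 and 2 and -0.30 in replicate 3. Within genotypes, the median SD of log2(CPM + 0.5) was 0.35 over the 39 genes and 0.30 over the 13863 tested genes with a mean CPM at or above that of the lowest of them.

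**Figure D3:**
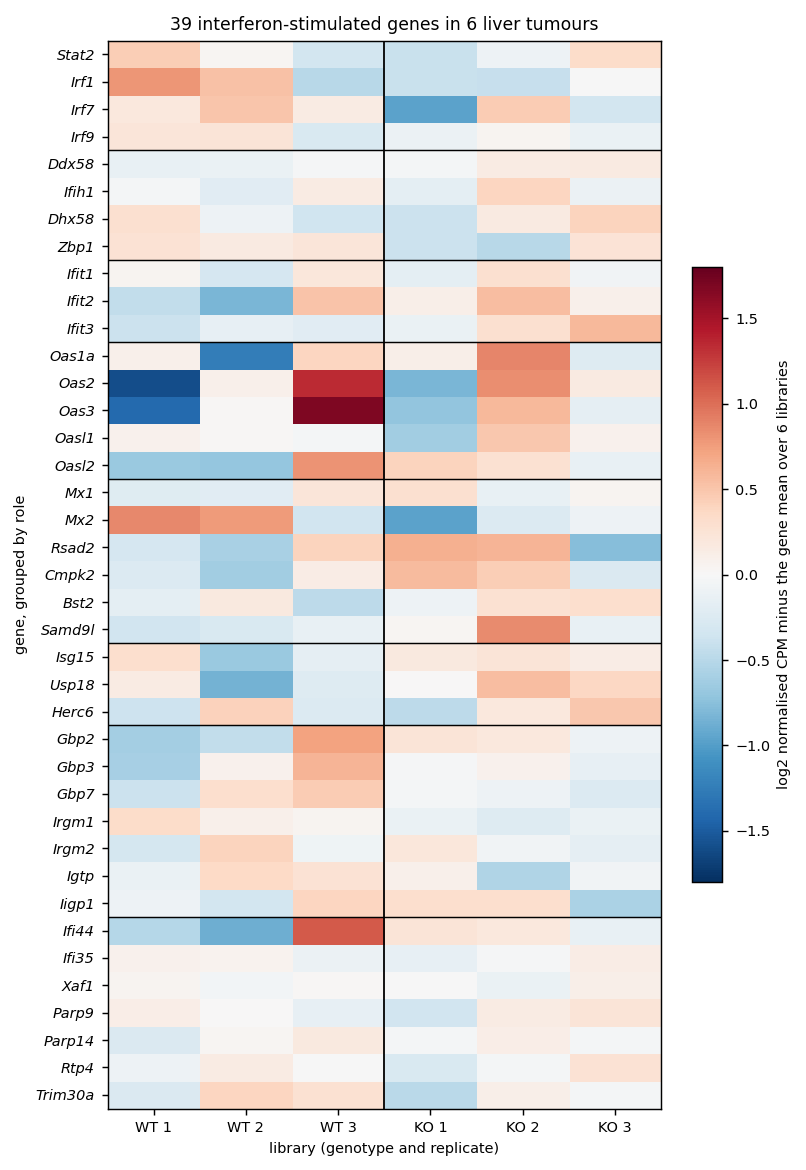
Log2 normalised CPM of each gene (rows, grouped by role) minus its mean over the 6 libraries (columns), red above and blue below the mean. The Oas2, Oas3, Oasl2, guanylate-binding protein and Ifi44 rows are reddest in WT replicate 3, and the vertical line between genotypes marks no change of colour common to the rows.

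Leaving out 1 library at a time gave other genes an unadjusted edgeR p under 0.05. There were 2 without WT replicate 1 (Gbp7 and Usp18; 4.08% of all genes), 0 without WT replicate 2 (3.24%), 1 without KO replicate 1 (Ifit3; 2.76%), 1 without KO replicate 2 (Irf7; 2.99%) and 2 without KO replicate 3 (Zbp1 and Samd9l; 2.66%). WT replicate 3 made the largest change. At an unadjusted p under 0.05 there were 6 of 39 genes without it, against 9.47% of all genes tested under the same fit, and none passed FDR 0.05. Gbp2 (0.65 ± 0.23), Ifi44, Oasl2 and Ifit2 were higher in KO, and Irf1 and Mx2 were lower. Genotypes did not overlap for 12 of 39 genes without that library, against 28.0% of all genes. Leaving out one of the others gave 14.7% (WT replicate 2) to 18.0% (WT replicate 1) of all genes. With sample quality weights in voom, which weigh WT replicate 3 down, Irgm1, Irf1, Mx2 and Ifit2 were under that p (6.23% of all genes), without the low-count filter Mx2 was (3.17%), and with the replicate number as a block none was (2.73%). In the same library the summed level of 10 neutrophil markers was 51.1 CPM, against 5.34 to 15.8 in the other 5, and that of 7 B and plasma cell markers was 61.4 CPM against 7.14 to 20.7. The part of these cells in the values of WT replicate 3 was not tested.

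Genes upstream of the set were described from lists. Of 19 interferon ligand genes matched, none passed the low-count filter and 16 had 0 reads in all 6 libraries, Ifnb1 and the interferon alpha genes among them. A count of 0 allows up to 0.0226 to 0.0396 CPM per library, counting error only. Interferon gamma (Ifng) was at 6, 2 and 11 reads in the WT libraries and at 4, 0 and 4 reads in the KO libraries. All 10 receptor and JAK-STAT genes were tested and 0 had an unadjusted p under 0.05 (median log2 fold change 0.12, and -0.029 to 0.14 when each library was left out). Of these Tyk2 had 30.2, 20.7 and 22.3 CPM in WT against 29.6, 28.9 and 25.6 in KO (0.20 ± 0.19), and Ifnar1 had 41.0, 36.2 and 36.7 against 42.5, 43.3 and 38.9 (0.13 ± 0.14). Sensing and induction factors likewise had 0 of 14 under that p and a median of -0.0023 (0.15 without WT replicate 3), with the adaptor Myd88 at -0.34 ± 0.19 and Mb21d1, the DNA sensor cGAS, at 0.53 ± 0.42.

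Genes listed as feedback inhibitors of cytokine signalling, not all of them specific to interferon, were read in the same fit. Whether they restrain the interferon-stimulated genes in these tumours was not tested. All 8 listed inhibitors had a log2 fold change below 0 (median -0.44), and 0 passed FDR 0.05. At an unadjusted edgeR p under 0.05 there were 3, where 2.02% of all genes were in that direction. Leaving out 1 library gave 1 (WT replicate 2, KO replicate 1 or KO replicate 2) to 4 (WT replicate 3). The share of all genes was then 2.66% to 9.47% in either direction. Without WT replicate 1 or KO replicate 1, 7 of the 8 inhibitors were below 0. Socs3, which acts on STAT3 signalling, had the smallest p, at -2.77 ± 0.27 (edgeR FDR 0.407). Cish, a STAT5 target, had 21.5, 47.9 and 29.6 CPM in WT against 13.0, 9.43 and 21.0 in KO, without overlap (-1.19 ± 0.40, edgeR FDR = 1.00). Socs1, the inhibitor most tied to interferon gamma, was counted low, at 0.225, 0.291 and 0.742 CPM in WT against 0.199, 0.105 and 0.169 in KO (-1.41 ± 0.59, edgeR FDR = 1.00). Socs1 was chosen for naming after its value was seen.

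A further 72 interferon-stimulated genes outside the set were tested, and 0 passed FDR 0.05. At an unadjusted p under 0.05 there were 2 higher and 1 lower in KO, against 1.6% and 2.02% of all genes, and the median log2 fold change was -0.070. The GTPase Ifi47 had 15.6, 14.7 and 16.4 CPM in WT against 13.5, 9.85 and 11.4 in KO (-0.43 ± 0.17, edgeR FDR = 1.00), the same side as Irgm1. Interferon-induced chemokines had 0 of 7 under that p, with Ccl5 at -0.58 ± 0.37 and Ccl2 at 0.80 ± 0.95. Of 16 genes for MHC class I and antigen processing, which interferon also induces, B2m alone was under that p, with 1770.1, 1544 and 1619 CPM in WT against 1162, 1128 and 1155 in KO (-0.52 ± 0.21, edgeR FDR = 1.00). H2-K1 had the next smallest p at -0.57 ± 0.25 (edgeR FDR = 1.00), and the median of the 16 was -0.12. Without WT replicate 3 the median was -0.012 over the 72 genes, -0.050 over the MHC genes (-0.31 to 0.039 when each library was left out) and 0.35 over the chemokines, which had -0.11 with it.

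Markers of other cell types were read in the same fit, and a difference between lists was not tested. The median log2 fold change was -2.16 over 9 neutrophil markers tested, -1.07 over 14 T and NK cell markers, -1.18 over 7 B and plasma cell markers and -0.88 over 13 macrophage and Kupffer cell markers. The summed level of the T and NK cell markers was 5.14 to 9.12 CPM in WT against 3.39 to 5.25 in KO, with 13 of 14 log2 fold changes below 0, and that of the macrophage markers was 196 to 625 CPM against 193 to 294, with 12 of 13 below 0. Without WT replicate 3 the neutrophil median was -0.22, with 5 of 9 below 0, while that of the B and plasma cell markers was -1.28, with 5 of 7 below 0, although their summed level was 8.22 to 11.7 CPM in the other WT libraries against 7.14 to 20.7 in KO. Endothelial markers had a median of -0.42 and summed levels of 341 to 406 CPM in WT against 249 to 302 in KO. Lower in KO without overlap were 6 of 10 endothelial, 6 of 14 T and NK cell and 3 of 7 B and plasma cell markers. The same held for 3 of 9 neutrophil, 2 of 13 macrophage and 0 of 8 hepatocyte markers, against 3.96% of all genes. Hepatocyte markers had 7 of 8 log2 fold changes below 0 and a median of -0.28. Stellate cell and fibroblast markers lay on the other side, with 8 of 9 above 0 and a median of 0.85, which was 2.26 without WT replicate 3. No marker of these lists was at 0 in all libraries. Plasmacytoid dendritic cell markers, of which Bst2 and Irf8 also stand in the interferon lists, had a median of -0.12, and of 0.16 without WT replicate 3. The part of these cells in the values of the 39 genes was not tested.

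**Figure D4:**
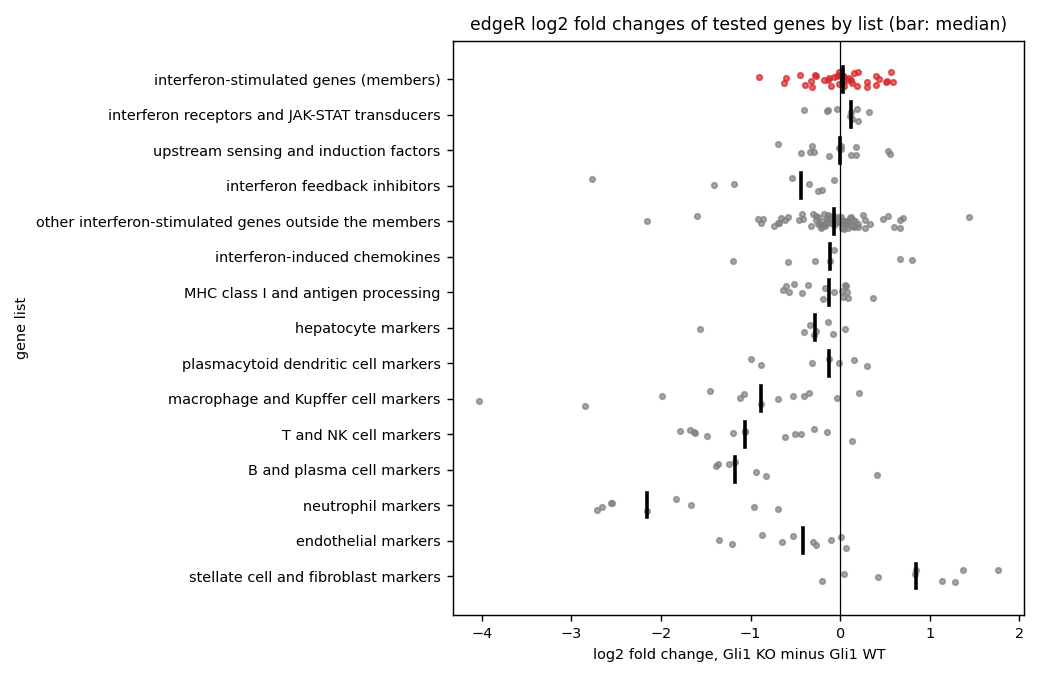
Log2 fold changes (KO minus WT, horizontal axis) of the tested genes of each list, with 1 point per gene and a bar at the median. The 39 interferon-stimulated genes (red) lie from -0.91 to 0.59 around a median of 0.031. The medians of the neutrophil, T and NK cell, B and plasma cell, and macrophage lists lie between -2.16 and -0.88. That of the plasmacytoid dendritic cell list is -0.12, and the neutrophil median is -0.22 without WT replicate 3.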

How the data were processed

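The submitters' processing notes name HTSeq, TopHat2 2.0.6 and bcl2fastq, giving no roles, and the human builds GRCh37 and hg19, although the identifiers are mouse Ensembl identifiers. Whether counting used strand is not stated there, so overlapping neighbours may share reads. The authors deposited 1 table with a raw count and an RPKM value per gene and library, per the file headers. RPKM were used only to compare levels between genes. Deposited starts equalled those of GENCODE M21 (GRCm38) for 31 of the 39 genes.

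The test on counts was that of edgeR 4.0.16 under R 4.3.3 (filterByExpr, TMM factors, robust quasi-likelihood, two-sided) with Benjamini-Hochberg adjustment over 18359 genes and FDR 0.05. SE is the log2 fold change divided by the root of F. Intervals are 95%, from the t distribution with the fit's degrees of freedom. Alternatives were DESeq2 1.42.0, limma 3.58.1 voom with and without sample quality weights, upper-quartile or RLE factors, other low-count filters, the replicate number as a block and leaving out each library.

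The genes and lists were chosen with earlier results of these data known. Named in full were, in each of 8 roles, the 2 genes of highest mean CPM and the 1 of smallest p, the 5 of smallest p in the set, and the 2 of smallest p in each other pathway list. Unadjusted p-values enter as counts, and single genes have intervals in their place. Other genes named with values were chosen after these were seen. Of 268 list entries, 3 had no single match. Same-numbered WT and KO libraries had r = -0.29, 0.18 and -0.34 between their deviations from the genotype means. The largest r was 0.51, between WT replicate 3 and KO replicate 1. With so few libraries these values cannot decide whether the numbers pair samples, and the labels do not say.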

Additional observations from a re-analysis of the deposited data

How the results depend on the processing

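No setting called any of the 39 genes at FDR 0.05. DESeq2 called 62 of the 19016 genes to which it gave an FDR (0.326%), against 0 by edgeR. At an unadjusted p under 0.05 there were 1 of the 39 without the low-count filter, 1 by DESeq2 and 4 with sample quality weights, against 0 in the reported fit, and 0 to 6 when each library was left out. Genotypes did not overlap for 3 genes with all 6 libraries (8.11% of all genes). The count was 2 with RLE factors and with a filter of CPM of at least 1 in 3 libraries. It was 4 with upper-quartile factors and without the low-count filter. The share of all genes was not taken under these settings, so these counts have no background beside them. When each library was left out the count was 4 to 12. The share of all genes was 28.0% without WT replicate 3 and 14.7% to 18.0% without any other library. The median log2 fold change stayed between -0.011 and 0.15 over these leave-outs, on both sides of 0. The replicate block called 0 of the 39 and left their median at 0.032. Several genes changed sign. Oas2 was 0.78 and Oas3 0.48 with quality weights, and Oas2 was 0.12 with voom and 0.13 with the replicate block. Ifi44 was 0.54 with quality weights, 0.18 with voom and 0.22 with the replicate block, and Gbp3 was 0.18 with quality weights. Oasl1 was -0.042 with the replicate block and -0.026 with voom, and with quality weights Irgm2 was 0.0016 and Parp9 -0.011. Leaving out each library gave -0.32 to 0.12 for Stat2, -0.11 to 0.19 for Ifih1, -0.11 to 0.15 for Ifit1, -0.25 to 0.28 for Oasl1, -0.075 to 0.44 for Herc6, -0.18 to 0.19 for Irgm2, -0.10 to 0.28 for Iigp1, -0.071 to 0.21 for Parp9 and -0.078 to 0.13 for Parp14. Oas2 ran from -0.64 to 0.74 and Oas3 from -1.06 to 0.53. Ifi44 ran from -0.40 to 0.80, Oasl2 from -0.050 to 0.89, Gbp2 from -0.13 to 0.65 and Gbp3 from -0.39 to 0.20. Smaller ranges across 0 were those of Dhx58 (-0.059 to 0.32), Rtp4 (-0.16 to 0.11), Ifi35 (-0.096 to 0.059) and Xaf1 (-0.080 to 0.044). In leave-outs of the lists, added after the data were seen, the median ran from -0.082 to 0.15 over the sensing factors, -0.64 to -0.34 over the feedback inhibitors, -2.64 to -0.22 over the neutrophil markers and 0.62 to 2.26 over the stellate cell markers. The cause was not tested. With 3 libraries per genotype the intervals of variable genes were wide, from -1.97 to 1.604 for Oas2, so a 2-fold difference was not excluded there. The smallest edgeR FDR over all genes tested was 0.407. The absence of calls at FDR 0.05 therefore does not set the 39 genes apart from the others.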
